A study of Mus musculus with 5 samples.

Results

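The 10 core pluripotency genes Pou5f1, Sox2, Nanog, Lin28a, Lin28b, Sall4, Utf1, Dppa5a, Dppa4 and Tdgf1 were followed through the fusion of mouse embryonic stem (ES) cells with a hepatoma line and through the differentiation of the hybrid. They were chosen by name, and all 10 had a probe, among 18328 named genes on the array. They had 13 probes of 41174 in all, since Lin28b, Sall4 and Dppa5a had 2 each. The brightest probe of a gene stands for it unless another is named.

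The series held 5 arrays, 1 for each condition. ES was the E14 line. EHe was a hybrid of E14 with Hepa1-6, a mouse hepatoma line, made with polyethylene glycol. The E14 parent carried red fluorescent protein with hygromycin resistance, the Hepa1-6 parent carried green fluorescent protein with neomycin resistance, and the hybrid carried both sets. EHeD7 and EHeD14 were EHe cells after 7 and 14 days of differentiation. Hybrid lines were grown from ES-like colonies, and how many colonies the arrayed RNA came from is not given in the sources used here. The labels give serum replacement, a little serum and leukemia inhibitory factor for ES and EHe. The differentiating hybrids were a monolayer on gelatin in another base medium with more serum, with no such factor listed, and Hepa1-6 was grown in that base medium with serum. The study's methods describe embryoid bodies in serum replacement for differentiation in culture, without naming the array samples.

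Pluripotent cells hold their state through a small circuit of transcription factors. Oct4, the protein of Pou5f1, binds DNA together with Sox2 at paired sites in front of many target genes, Nanog among them, and the circuit also keeps up genes for RNA-binding, chromatin-linked and signalling proteins. In the embryo the circuit passes from a naive form, held in culture by leukemia inhibitory factor, to a primed form in the epiblast, in which Oct4 stays on while many of its naive partners are switched off.

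Signals were the deposited spot intensities, set on a log2 scale and shifted so that the 75th percentile of each array lies at 0. This is called the scaled log2 signal, and it serves to compare 1 probe between arrays, not 1 gene with another. No array was repeated, so the differences have no replicate check, no p-value is given, and their number limits the precision. Probes printed 10 times on an array had a median SD between spots of 0.07 to 0.09 on the log2 scale, which gives an SD of up to 0.129 for the difference of 2 spots. This SD comes from spots within an array and holds no spread between arrays, labellings or cultures. A gap above it is therefore not shown to be a difference between conditions. Each of the 13 probes was a single spot. A difference was counted when it passed 3-fold with the brighter array well above background. Where the dim array was not well above background, the fold is a bound, computed at the lowest signal called well above background on that array. Between 54.6% and 67.6% of probes were well above background. Hepa1-6 was hybridized on another slide than the other 4 arrays, so slide and line cannot be told apart. Of the 7 measured hepatocyte markers, 5 were well above background in Hepa1-6 and 1, Trf, was in EHe.

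All 10 genes were well above background on the 4 arrays other than Hepa1-6. EHe did not differ from ES past 3-fold in any of them. This was so for most named genes, of which 2.61% were higher and 3.54% lower. After differentiation only Sox2 and Nanog had fallen past 3-fold by their brightest probes, beside 4.35% of named genes at day 7 and 4.81% at day 14. The other 8 genes stayed within 3-fold of EHe at both days, with Lin28a the highest at 238% of EHe by day 14 and Dppa5a the lowest at 41.2%. In Hepa1-6, 9 of the 10 were lower than in ES past 3-fold, beside 22.2% of named genes, and Dppa4 was the exception.

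**Figure D1:**
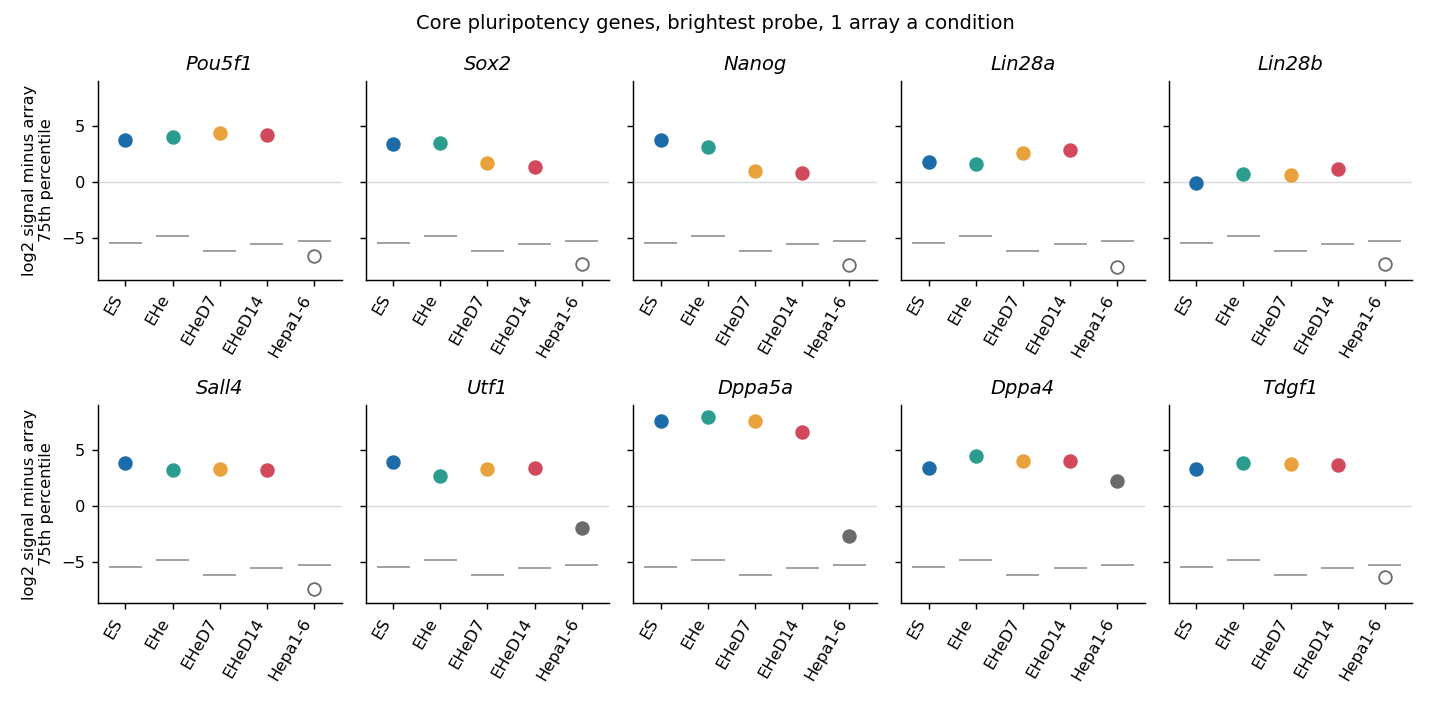
Scaled log2 signal (log2 intensity minus the 75th percentile of the array) of the brightest probe of each gene on the 5 arrays, 1 point an array, with no replicates. Open points were not well above background and the grey bars mark the lowest signal called well above background on each array. Sox2 and Nanog step down in EHeD7 and EHeD14, Pou5f1, Sall4 and Tdgf1 stay level across the 4 ES-derived arrays, and Dppa4, Utf1 and Dppa5a keep a signal in Hepa1-6.

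The stretches in front of 4 of these genes are shown, the 2 genes that fell and 2 of those that did not. Each holds the 250 bases before a gene start in RefSeq (GRCm38.p6), read 5′ to 3′ on the gene's strand. Capitals mark matches to an octamer core, the Oct4 letters ATGCAAA, or to a Sox element, CATTGT, on either strand. Nanog lies at chr6:122707239-122707488 on the plus strand, Sox2 at chr3:34649745-34649994 on the plus strand, Pou5f1 at chr17:35505782-35506031 on the plus strand and Tdgf1 at chr9:110946159-110946408 on the minus strand.
Nanog: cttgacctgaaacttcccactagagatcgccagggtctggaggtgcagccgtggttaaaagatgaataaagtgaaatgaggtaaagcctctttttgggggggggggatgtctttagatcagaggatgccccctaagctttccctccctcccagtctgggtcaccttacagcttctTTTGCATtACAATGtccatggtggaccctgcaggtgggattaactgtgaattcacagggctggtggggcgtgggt
Sox2: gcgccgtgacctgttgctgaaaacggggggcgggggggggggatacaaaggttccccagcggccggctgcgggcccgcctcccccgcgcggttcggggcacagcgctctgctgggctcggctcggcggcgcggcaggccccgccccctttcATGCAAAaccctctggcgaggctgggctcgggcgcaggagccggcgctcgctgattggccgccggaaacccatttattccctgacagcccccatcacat
Pou5f1: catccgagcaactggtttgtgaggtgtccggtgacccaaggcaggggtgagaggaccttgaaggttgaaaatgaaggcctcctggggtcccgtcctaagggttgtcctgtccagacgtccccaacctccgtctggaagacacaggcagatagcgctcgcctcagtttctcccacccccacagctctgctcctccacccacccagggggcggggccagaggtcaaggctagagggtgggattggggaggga
Tdgf1: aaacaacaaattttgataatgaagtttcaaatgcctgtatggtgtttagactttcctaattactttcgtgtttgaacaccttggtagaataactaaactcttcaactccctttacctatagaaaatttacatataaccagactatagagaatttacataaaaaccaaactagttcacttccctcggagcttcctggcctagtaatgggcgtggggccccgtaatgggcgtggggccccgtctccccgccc

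The Nanog stretch held both motifs 1 base apart, from 75 to 62 bases before the start, read from the other strand as a Sox element followed by an octamer core. Of 32851 RefSeq windows of 300 bases (250 before a start and 50 after), an octamer core was in 4.63% and a Sox element in 12.6%. Both in this order on 1 strand with at most 3 bases between them were in 3 windows, 0.00913%. Of these 3, 2 were overlapping windows of Nanog and 1 was a window of Acyp1. The Sox2 stretch had an octamer core from 99 to 93 bases before the start and no Sox element. Neither motif was in the Pou5f1 and Tdgf1 stretches shown, nor in the windows of Lin28b and Utf1. A second Pou5f1 window, at a later start, had 1 Sox element, as did the Lin28a window. The table held windows for 7 of the 10 genes, and not for Sall4, Dppa5a and Dppa4. The letters are a description of these windows only, and binding sites further away were not searched. Neither binding nor methylation was measured on these arrays, and a link between the letters and the course of a gene was not tested. The Sox2 window was rich in CG pairs, the sites of DNA methylation, with 27 against a median of 7 over all windows. The first Pou5f1 window had 11 and the Nanog window 4.

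Among the 3 central transcription factors, Pou5f1 was the one that stayed. Pou5f1 encodes Oct4, the POU-domain factor that the naive and primed states share. ES had a scaled log2 signal of 3.75, EHe of 4.05, EHeD7 of 4.41 and EHeD14 of 4.18, and in Hepa1-6 it was not well above background. The 4 ES-derived arrays spanned 0.65 on the log2 scale, and the level stood at 128% of EHe at day 7 and 109% at day 14. EHe was at least 648-fold above Hepa1-6. Under median centring the small difference at day 14 turned into a log2 difference of -0.03.

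Sox2, the high-mobility-group partner of Oct4 and later a neural progenitor factor, fell. The scaled log2 signal was 3.36 in ES and 3.47 in EHe, a gap below the SD of a spot difference. It was 1.68 in EHeD7 and 1.31 in EHeD14, which is 28.8% and 22.3% of EHe. The fall was therefore 3.47-fold at day 7 and 4.49-fold at day 14, and 82.8% of the day 14 fall on the log2 scale was in place by day 7. Even so, EHeD14 was at least 97.1-fold above Hepa1-6, where Sox2 was not well above background.

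Nanog, the homeodomain factor that steadies naive pluripotency, was the only one of these 3 to be lower in the hybrid than in ES, by more than the SD of a spot difference. On the scaled log2 scale it read 3.78 in ES, 3.12 in EHe, 0.96 in EHeD7 and 0.80 in EHeD14, and it was not well above background in Hepa1-6. EHe was at 63.4% of ES, a difference under 3-fold. Against EHe, Nanog fell 4.49-fold by day 7 and 4.99-fold by day 14, to 20.0% of EHe. Of the day 14 fall, 93.5% was in place by day 7, and EHeD14 was at 12.7% of ES. Its level in EHeD14 was still at least 68.5-fold above that in Hepa1-6. Nanog and Sox2 thus both took most of their fall before day 7. From day 7 to day 14 the log2 difference was -0.15 for Nanog and -0.37 for Sox2. Over all named genes the 10th percentile of this difference was -0.36 and the 90th 0.36. A small gap between the days was therefore common, and Sox2 lay just under the 10th percentile.

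The Lin28 proteins bind RNA and keep the let-7 family of miRNAs from maturing. Lin28a stood highest above EHe among the 10 genes, although by less than 3-fold. Its scaled log2 signal was 1.79 in ES, 1.56 in EHe, 2.63 in EHeD7 and 2.81 in EHeD14. The 2 differentiated arrays were thus above both undifferentiated ones, at 209% and 238% of EHe and at 179% and 203% of ES. Against Hepa1-6, where it was not well above background, EHeD14 was at least 276-fold higher. The paralog Lin28b had a scaled log2 signal of -0.05 in ES, 0.74 in EHe, 0.65 in EHeD7 and 1.17 in EHeD14. ES was therefore the lowest of the 4 arrays, EHe stood at 174% of it, and EHeD14 reached 134% of EHe. The dimmer Lin28b probe gave the same order of the 4 arrays, with EHe at 163% of ES and EHeD14 at 126% of EHe.

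Sall4, a zinc-finger factor that works alongside Oct4 and Nanog, hardly moved among the hybrid arrays. Its brighter probe read 3.80 in ES, 3.20 in EHe, 3.31 in EHeD7 and 3.18 in EHeD14 on the scaled log2 scale. EHeD14 was at 98.2% of EHe, and both hybrid gaps next to EHe were below the SD of a spot difference. The probes disagreed in Hepa1-6. The brighter one was not well above background there, at least 548-fold under ES, while the other was well above background at 31.0% of ES. On that second probe the scaled log2 signal was 0.18 in ES and between -0.36 and -0.21 in the 3 hybrid arrays, with -1.51 in Hepa1-6.

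**Figure D2:**
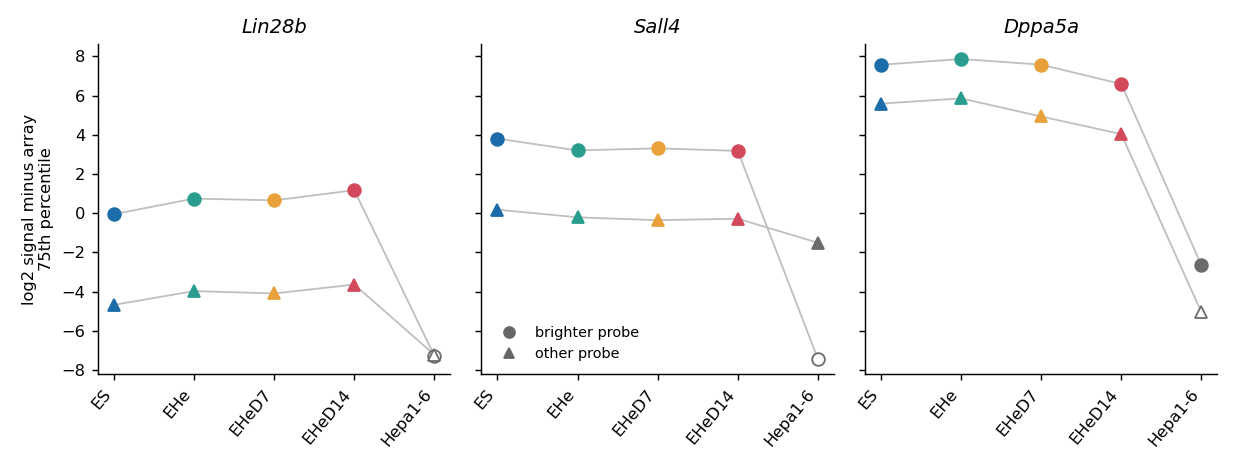
Scaled log2 signal on the 5 arrays for the 3 genes with 2 probes, circles for the brighter and triangles for the other probe, open where not well above background, 1 array a condition. The Sall4 probes part in Hepa1-6 (not well above background against -1.51), and the second Dppa5a probe drops further at day 7 (52.7% of EHe) than the first (81.8%).

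Utf1 and the Dppa genes encode nuclear or RNA-linked proteins of early embryos that are commonly read as markers of pluripotency. Utf1, a chromatin-associated factor, had its lowest level of the 4 arrays in EHe. The scaled log2 signal was 2.68 there, against 3.87 in ES, 3.23 in EHeD7 and 3.36 in EHeD14, and it was -1.98 in Hepa1-6. EHe was at 43.8% of ES, the largest shortfall among the 10 genes in that comparison, and the differentiated hybrids stood at 147% and 160% of EHe. Hepa1-6 kept a signal well above background, 57.8-fold below ES.

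Dppa5a, an RNA-binding protein of the KH-domain family, was lower at day 14. The scaled log2 signal of its brighter probe was 7.57 in ES, 7.87 in EHe and 7.58 in EHeD7, then 6.59 in EHeD14, and it was -2.66 in Hepa1-6. EHeD7 and ES differed by 0.01, and EHeD14 was at 41.2% of EHe and 50.4% of EHeD7. In contrast to Sox2 and Nanog, 22.7% of its day 14 log2 difference on this probe was in place by day 7. The second probe read 5.59 in ES, 5.86 in EHe, 4.93 in EHeD7 and 4.04 in EHeD14. On this probe 50.7% of the day 14 difference was in place by day 7, and 39.1% with the mean of both. It put EHeD14 at 28.3% of EHe, past 3-fold, so whether Dppa5a counts among the genes that fell rests on the probe, and with the mean of both probes it did not pass 3-fold. In Hepa1-6 the brighter probe was 1205-fold under ES and the second was not well above background.

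Dppa4, a SAP-domain protein that binds chromatin as a partner of Dppa2, was the gene of the 10 with the most signal left in the hepatoma. ES read 3.39 on the scaled log2 scale, EHe 4.42, both differentiated hybrids 3.95 and Hepa1-6 2.17. Hepa1-6 was at 43.1% of ES, within 3-fold, and EHe was at 204% of ES and 473% of Hepa1-6. The differentiated hybrids stood at 72.3% and 72.1% of EHe and did not differ from each other beyond the spread of spots. Dppa4 alone of the 10 thus did not separate the parents past 3-fold.

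Tdgf1 encodes Cripto, a membrane-bound co-receptor for Nodal. By brightest probes it had the narrowest span of the 10 across the 4 ES-derived arrays, 0.56 on the log2 scale. Sall4 at 0.63 and Pou5f1 at 0.65 were close. On the second Sall4 probe the widest difference, EHeD7 minus ES, was -0.54, so this order rests on the probe. The scaled log2 signal of Tdgf1 was 3.28 in ES, 3.84 in EHe, 3.76 in EHeD7 and 3.66 in EHeD14. It was not well above background in Hepa1-6. The 3 hybrid arrays followed each other with gaps below the SD of a spot difference, and EHeD14 was at 88.2% of EHe. Over all 10 genes, 9 of the 30 gaps between neighbours in the order of the 4 arrays were below that SD, and EHeD14 was the lowest array for 4 genes.

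The comparison of EHe with ES asked whether the hybrid kept the pluripotency levels of its ES parent. None of the 10 genes was higher or lower past 3-fold, against a background of 2.61% of 14083 named genes higher and 3.54% lower. The log2 differences ran from -1.19 for Utf1 to 1.03 for Dppa4 with a median of 0.20, and the median over all named genes tested was -0.13. Each hybrid cell carries the genome of both parents, so the signal was also set against the mean of the ES and Hepa1-6 signals. EHe was above this mean for 9 of the 10 genes, with a median ratio of 2.31. Where the Hepa1-6 signal was near 0, this ratio only restates EHe against ES: for Pou5f1, EHe at 123% of ES gives 2.45. Of the 3236 named genes that were more than 3-fold higher in ES than in Hepa1-6, 69.2% were above their parental mean, with a median ratio of 1.32. That set takes any gene past 3-fold, including genes with more Hepa1-6 signal, for which the same EHe level gives a smaller ratio. Its median therefore cannot be set against that of the 10 genes, and Dppa4 did not meet its rule. Lin28b stood highest at 3.45 times the mean, followed by Tdgf1 at 2.94 and Dppa4 at 2.85. Utf1 alone was below the mean, at 0.861 times.

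**Figure D3:**
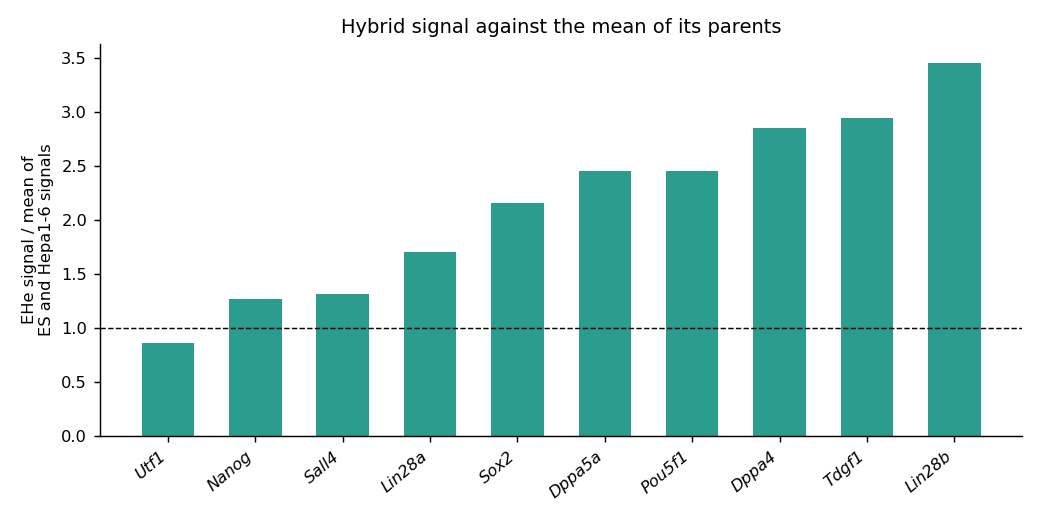
Bars give the EHe signal of each gene divided by the mean of the ES and Hepa1-6 signals (each array scaled by its 75th percentile, brightest probe, 1 array a condition). The dashed line marks the parental mean, and bars run from 0.861 for Utf1 to 3.45 for Lin28b.

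Between the parents, 9 of the 10 genes were lower in Hepa1-6 than in ES past 3-fold and none was higher. The background was 22.2% of 14552 named genes lower and 14.0% higher. The median log2 difference of the 10 genes was -8.61, against -0.42 for all named genes tested. For Pou5f1, Sox2, Nanog, Lin28a, Lin28b, Sall4 and Tdgf1 the fold is a bound, from at least 37.8-fold for Lin28b to at least 548-fold for Sall4. Utf1 and Dppa5a were measured on both arrays.

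At day 7, Sox2 and Nanog were lower than in EHe past 3-fold and no gene of the 10 was higher, against 4.35% of 14671 named genes lower and 7.13% higher. At day 14 the same 2 genes were lower and again none was higher, with a background of 4.81% of 14262 lower and 7.35% higher. The log2 differences of the 10 genes at day 14 ran from -2.32 to 1.25 around a median of -0.10, close to the median of -0.07 over all named genes. In all named genes the 10th percentile lay at -0.98 and the 90th at 1.29. Nanog, Sox2 and Dppa5a lay under the first of these, and Lin28a came just short of the second. From day 7 to day 14 none of the 10 passed 3-fold, while 0.689% of 14668 named genes were lower and 0.518% higher, and the log2 differences ran from -0.99 for Dppa5a to 0.52 for Lin28b. With a mixed population, fewer cells that express a gene and less RNA per cell cannot be told apart. Medium and growth form changed together with the days, and their parts in these differences cannot be told apart.

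**Figure D4:**
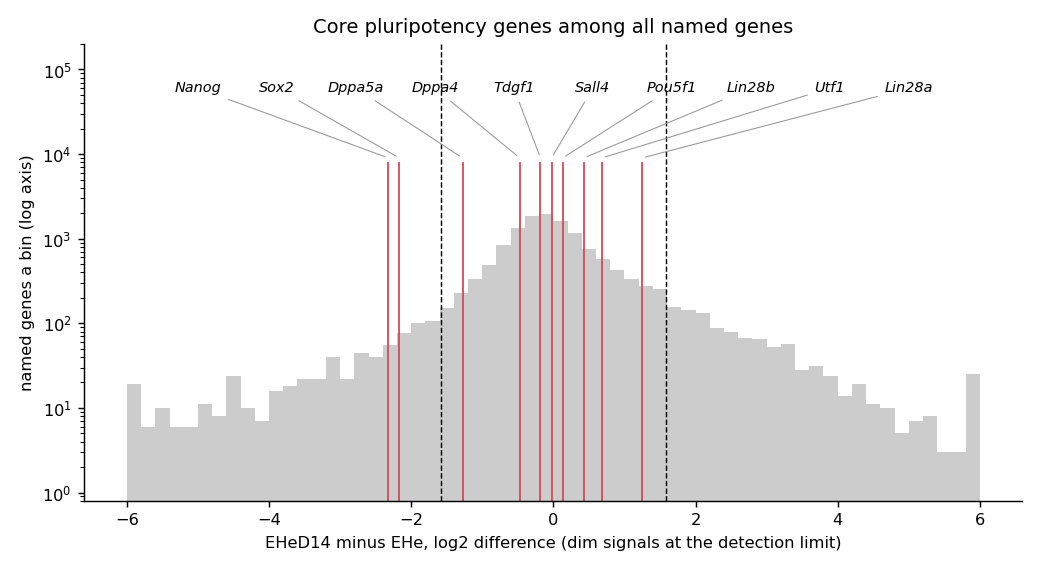
Grey bars count the named genes tested by their log2 difference EHeD14 minus EHe in bins of 0.2 (log count axis, values past 6 either way in the end bins). Red lines mark the 10 core genes and dashed lines a 3-fold difference, and only Nanog (-2.32) and Sox2 (-2.17) lie outside them.

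Other genes of the pluripotency network, most of them naive factors, were set beside the 10. Most of those that fell past 3-fold went further down than any of the 10. Of 21 measured network genes, 13 fell past 3-fold in EHeD14 against EHe and 1 rose, with a median log2 difference of -2.71. Over all named genes 4.81% were lower and 7.35% higher past 3-fold at day 14, the background for this list and for those below. Nr5a2, a nuclear receptor that acts on Pou5f1, fell at least 135-fold, to a signal not well above background. Esrrb, an orphan nuclear receptor, fell 116-fold and Tcl1, a co-activator of Akt kinase, 55.2-fold. Tcl1 had been higher in EHe than in ES past 3-fold, and at day 14 it was 15.3-fold below ES. Foxd3, a forkhead factor of epiblast and neural crest, was the gene that rose, to 9.64 times EHe. Sox2 and Nanog, at 4.49-fold and 4.99-fold, each fell less than 11 of those 13. Of the 7 network genes within 3-fold, Zscan10, Tdh, Phc1, Rif1 and Jarid2 stood between 78.1% and 111% of EHe. The others, Trim28 and Dppa2, were lower, at 58.0% and 45.6%. Among the 10 core genes Pou5f1 was at 109%, Sall4 at 98.2% and Tdgf1 at 88.2%.

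**Figure D5:**
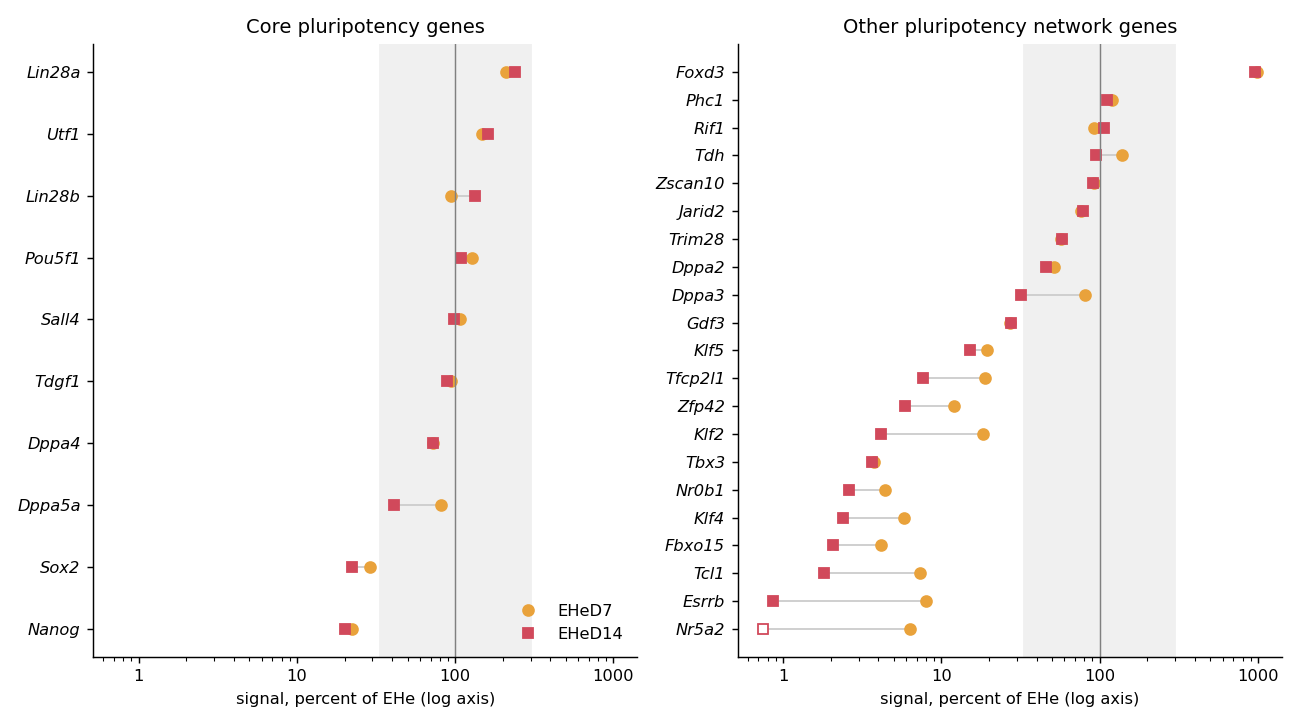
Signal in EHeD7 (circles) and EHeD14 (squares) as a percent of EHe on a log axis, for the 10 core genes on the left and the 21 other network genes on the right, with 3-fold either way shaded and open where not well above background (drawn at the detection limit), 1 array a condition. The core genes lie between 20.0% and 238%, while the network genes reach down to 0.742% for Nr5a2.

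Genes of the formative and primed epiblast were read beside these falls. Of 9 measured, 4 rose past 3-fold at day 14 and 1 fell, with a median log2 difference of 1.29. Fgf5, a growth factor of the epiblast, rose at least 226-fold, Otx2, a homeobox factor, 17.6-fold and Pou3f1, a POU factor related to Oct4, 9.47-fold. Otx2 was lower in EHe than in ES past 3-fold, and its day 14 level was 2.43-fold above ES, under the threshold. Zic2 fell 3.69-fold. In the same arrays Pou5f1 was at 109% of EHe and Nanog at 20.0%.

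Of 15 measured genes of the Lin28 and let-7 axis, the let-7 targets Ccnd2, a cyclin, and Myc rose past 3-fold at day 14, at 8.19 and 4.71 times EHe. None fell. Over all named genes 7.35% were higher, so 2 of 15 does not set this list apart. Lin28a itself, at 238% of EHe, did not pass 3-fold. Myc was lower in EHe than in ES past 3-fold (a log2 difference of -2.42), and at day 14 it was 1.13-fold below ES, while Ccnd2 was 4.56-fold above ES. These Myc values are those of its brightest probe. A second Myc entry in the study's supplement stays under 3-fold for EHe against ES and for EHeD14 against EHe, so both Myc differences rest on the probe. The list median was 0.07. Igf2bp1, Igf2bp2 and Igf2bp3, RNA-binding proteins of the same axis, were between 93.4% and 113% of EHe. let-7 itself was not measured here.

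Among 13 genes tested of the Nodal and Cripto axis, with a list median of 0.34, Nodal rose to 3.52 times EHe at day 14 (2.96 times ES, under the threshold) while its co-receptor gene Tdgf1 stayed at 88.2%. The Nodal inhibitors Lefty1 and Lefty2 fell 6.28-fold and 4.65-fold, and the related ligand Gdf3 fell 3.64-fold.

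Relatives of the 10 genes did not share their course throughout. Of 13 relatives tested, 3 rose and 5 fell past 3-fold, with a median of -1.13. Pou3f1, Sall2 (5.64 times EHe) and Sox17 (4.69 times) rose, Sox17 to a level 1.39-fold below ES. Ooep (19.5-fold), Khdc3 (13.8-fold), Sall1 (6.21-fold), Sall3 and Dppa3 fell, Sall1 and Sall3 being zinc-finger paralogs of Sall4. Sall3 had been higher in EHe than in ES past 3-fold, and at day 14 it was 1.19-fold above ES. Khdc3 and Dppa3 had already been lower in EHe than in ES past 3-fold. Neighbours on the chromosome were looked at for Dppa5a and Dppa4 alone. In the RefSeq gene order (GRCm38.p6), Ooep, a gene of the oocyte and early embryo, is next to Dppa5a on chromosome 9. The fall of Ooep to 5.12% of EHe stood beside 41.2% for Dppa5a. Dppa4 is next to Dppa2 on chromosome 16, followed by Morc1. Dppa2 stood at 45.6% of EHe at day 14 and Dppa4 at 72.1%. Morc1, a gene known for silencing transposons in germ cells and named here after its values were seen, went from a scaled log2 signal of 3.65 in EHe to -2.52 in EHeD14.

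Markers of other cell types moved with the falls of Sox2 and Nanog. At day 14, 7.35% of all named genes were higher and 4.81% lower past 3-fold. Of 3 mesoderm genes tested, T (at least 93.6-fold) and Hand1 (at least 35.1-fold) rose by day 14, and Kdr and Mixl1 were not well above background in EHe or EHeD14. Of 5 endoderm genes, Foxa2 (at least 5.30-fold), Sox17 and Gata6 rose against EHe, where all 3 had been lower than in ES past 3-fold. At day 14 Gata6 was 3.56-fold and Sox17 1.39-fold below ES, and Foxa2 was 1.33-fold above it. Of 5 neural genes, Zic1 and Nes rose and Pax6, higher in EHe than in ES past 3-fold, fell at least 40.4-fold. Of 6 mesenchyme genes Col1a1 (19.4-fold), Col1a2 and Thy1 rose, while Acta2 was at 102% of EHe and Vim at 38.4%, after falling past 3-fold at day 7. Of 5 trophoblast genes tested, Krt7 (58.1-fold), Gata3 (at least 20.6-fold) and Eomes rose and Tfap2c fell. Krt7 and Hand1 had also been lower in EHe than in ES past 3-fold, and at day 14 they were 6.90-fold and 4.12-fold above ES. Of 5 germ cell genes, which overlap with pluripotency, Tfap2c, Dazl, Prdm1 and Nanos3 fell. The 1 hepatocyte gene tested, Trf, stayed within 3-fold.

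Summed signals of these lists, in multiples of the array's 75th percentile, did not always follow the counts, since 1 bright gene made up much of each sum. The sums took signals as measured, including those not well above background. In ES, EHe and EHeD14 the mesoderm sum was 0.407, 0.110 and 4.58, and the endoderm sum 3.72, 0.386 and 1.42. None of the 5 mesoderm genes was well above background in EHe, so that sum is of background readings. The neural ectoderm sum was 1.94, 4.37 and 13.3, led by Nes. For mesenchyme it was 35.8, 53.3 and 33.3, although the median log2 difference of this list from EHe to EHeD14 was 1.64, and Vim made up 74.2% of the EHe sum. For trophoblast it was 16.9, 10.0 and 5.44 although the list median was 3.97, and Tfap2c made up 98.1% of the EHe sum. The germ cell sum was 19.7, 12.3 and 1.51 and the hepatocyte sum 0.518, 0.333 and 0.262. Of the 7 measured hepatocyte genes, 3 were well above background in ES, 1 in EHe and 1 in EHeD14. Their part in the course of the 10 genes was not tested.

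Across the 5 arrays, the genes whose pattern came closest to a core gene were found by the root mean square distance of their log2 differences from EHe, over 15427 genes. For these core genes the Hepa1-6 difference is a bound that depends on how bright the probe was in EHe, so these distances compare probe levels as well as courses. Nearest to Pou5f1 were Tdgf1 at 0.32, Sfxn1 at 0.33 and Agpat4 at 0.36. Nearest to Sox2 were Pipox (0.29), Lck (0.30) and Inpp5d (0.35), and Nanog came in place 5. Nearest to Nanog were Rpp25 (0.34), Lck (0.39) and Pipox (0.42), and Sox2 came in place 4. Lin28a lay nearest to Mapk13 (0.19), Fkbp10 (0.27) and Panx1 (0.27), and its paralog Lin28b came in place 92.

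The order did not hold without the Hepa1-6 difference, an alternative chosen after the data had been seen. Tdgf1 then came in place 1897 from Pou5f1, Nanog in place 203 from Sox2, Sox2 in place 88 from Nanog and Lin28b in place 5423 from Lin28a. Rpp25 was in place 6 from Nanog.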

How the data were processed

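Each of the 5 arrays (ES, EHe, EHeD7, EHeD14, Hepa1-6) was deposited by the authors as a table of spot intensities from the scanner software, Agilent Feature Extraction 10.7.3.1 per the file headers. The processed signal, an intensity that this software had corrected for background and detrended, was deposited without normalization between arrays. The deposited series table held the same values (largest log2 difference 0). The labels name Cy3 as the dye and the study's methods Cy5. Per the labels and headers no build is named. The software's 0 or 1 calls, deposited beside the intensities, were used to drop outlier spots (73 to 174 an array) and to mark signals well above background. No spot was saturated.

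Signals were log2 transformed, shifted by the 75th percentile of each array (intensities of 1084 to 1445) and compared as differences, with dim values raised to the lowest signal called well above background (18.3 to 45.1). RefSeq accessions named 26888 of the 41174 probes. The Nanog probe was named through a supplementary list of the study that pairs its transcript with the gene. Gene starts and order came from RefSeq (GRCm38.p6). Depth on arrays is signal over background, and the scanner error of the 13 probes was 10.0% to 19.9% of signals well above background and 22.5% to 99.9% of those not.

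The members and lists were chosen with earlier results of these data known. Named were all 10 core genes, the 3 genes nearest to each of Pou5f1, Sox2, Nanog and Lin28a, and from each list up to 3 genes with the largest rise and fall past 3-fold at day 14. Other genes named from the lists, such as further fallen genes or genes within 3-fold, were chosen after their values were seen. The lists were pluripotency network, Lin28 and let-7 axis, Nodal and Cripto axis, formative and primed epiblast, relatives of the 10 genes, and markers of hepatocytes, germ cells, endoderm, mesoderm, neural ectoderm, mesenchyme and trophoblast. Listed genes with no named probe or with an outlier spot were not used here, and 1 gene of the network list is not reported here. The alternatives were normexp (offset 50, on the median signal, since the mean signal was not used here) and quantile normalization in limma 3.58.1 (R 4.3.3), median centring, signals as measured, no or a stricter detection requirement, the mean of a gene's probes, a 2-fold threshold and the series table. Python 3.11.15, numpy 2.4.6, pandas 2.3.3 and matplotlib 3.10.9 were used. The procedure was tested on simulated data built from the EHe array, with the noise of spots and large changes planted in bright genes. These data held no spread between arrays, labellings or cultures and no changes near the threshold.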

Additional observations from a re-analysis of the deposited data

How the results depend on the processing

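Of 90 counts of core genes recomputed under 9 alternatives, 83 stayed within 1.5 times their value. With a 2-fold threshold, 1 gene was higher (Dppa4) and 1 lower (Utf1) in EHe against ES, and Lin28a was the 1 gene higher in EHeD7 and in EHeD14 against EHe. At 2-fold Dppa5a joined Sox2 and Nanog as lower in EHeD14 against EHe, which made 3 genes. Dppa4 also passed, so that all 10 were lower in Hepa1-6 than in ES. Both of these counts stayed within 1.5 times their value. When a gene had to be well above background on all 5 arrays, 3 core genes were left, so that 2 (Utf1 and Dppa5a) were lower in Hepa1-6 than in ES and 0 lower in EHeD7 and in EHeD14 against EHe. By construction this setting drops Sox2 and Nanog. Of 300 log2 differences of single genes, 227 moved by less than 0.129 and 73 by more, and no called difference changed sign. The sign changed in 8 values, all of small uncalled differences in Lin28b, Sall4, Tdgf1, Pou5f1 and Dppa4. Some values could not move. The series table held the same signals, for the counts as well, and the mean of probes leaves a gene with 1 probe unchanged. Of 50 differences each, 30 moved by more than 0.129 under median centring, 17 under quantile normalization and 14 under normexp. Median centring moved the median over all named genes from -0.42 to 0.35 in Hepa1-6 against ES, from -0.12 to -0.30 in EHeD7 against EHe and from -0.07 to -0.23 in EHeD14 against EHe. The bounds of Hepa1-6 against ES moved both ways: on the log2 scale Nanog, at -9.07, was at -11.21 with signals as measured and -7.25 under normexp, Pou5f1 went from -9.04 to -7.44 under normexp, and with the mean of probes Sall4 went from -9.10 to -5.39 and Lin28b from -5.24 to -2.93. No paired analysis was possible because a condition was measured on 1 array alone, and for that reason none could be left out. Repeats of the cultures would be needed to give any of these differences an error.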
